A study of Arabidopsis thaliana with 18 samples.

Results

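AT1G47400 and BHLH101 (AT5G04150) are genes that Arabidopsis roots switch on when iron is short, and their transcript levels were followed here in roots of 2 ecotypes at 3 angles of the growth plate. The set was defined by gene name: AT1G47400, the 4 basic helix-loop-helix (bHLH) genes of subgroup Ib (BHLH101, BHLH100 or AT2G41240, bHLH38 or AT3G56970, and bHLH39 or AT3G56980), the iron transporter gene IRT1 (AT4G19690) and the ferric reductase gene FRO2 (AT1G01580), as far as the array annotation gives each a probe set of its own. Of these 7 genes, AT1G47400 and BHLH101 have such a probe set and are the 2 genes described, out of 13286 genes with such a probe set in the series. BHLH100, bHLH38, bHLH39, IRT1 and FRO2 were not analysed here.

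Arabidopsis takes up iron by acidifying the soil, reducing ferric to ferrous iron at the root surface with FRO2, and importing it through IRT1. Both genes are activated by FIT, a bHLH factor that works in a pair with a bHLH factor of subgroup Ib, such as BHLH101. The genes of subgroup Ib are themselves induced by bHLH121 and the factors of subgroup IVc (bHLH34, bHLH104, ILR3 and bHLH115), and the ubiquitin ligases BTS, BTSL1 and BTSL2 hold the response back. AT1G47400 belongs to the IRON MAN family of short peptides, which bind these ligases and so promote iron uptake. In the RefSeq gene order the next gene to AT1G47400 is AT1G47395, another member of that family, and whether the probe set of AT1G47400 also takes up its transcript was not tested.

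The wild type ecotypes were Col-0, whose roots are known to skew little on a tilted plate, and WS, whose roots are known to skew to one side. Roots of both are known to wave on a plate tilted backward. Col-0 and WS seedlings were grown at Agp 45° (tilted backward) or Agp 135° (tilted forward) for the last 5 of 8 days, after 3 upright days, or stayed upright at Agp 90° for 8 days, all on 1 medium, in constant light and with no iron treatment named in the labels. Each of the 6 groups has 3 Affymetrix ATH1 arrays (18 in all), and each array carried the RNA of 5 roots cut from their shoots, so a p-value measures the spread between such pools, and the labels do not say whether these came from separate plates. Values are MAS5 signals, a measure of probe brightness on a linear scale, and log2 fold changes are from a limma model of all 18 arrays on log2(signal + 32) after quantile normalization.

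The annotation gave 3 of 10 listed root hair and epidermis genes a probe set of their own. These genes, EXPA7, EXPA18 and PER44, gave summed signals between 2189 and 4466 over the 18 arrays. RCA, the rubisco activase gene and the 1 photosynthesis gene with such a probe set (of 10), gave 649 to 1454. For actin, the signal of the 3′ probe set over that of the 5′ one, which climbs as RNA is degraded, was 6.06 in Col-0 Agp 90° replicate 2 and 6.05 in WS Agp 90° replicate 3, against 3.85 to 4.76 in the other arrays.

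AT1G47400 was lower in Col-0 than in WS roots. In Col-0, AT1G47400 gave signals of 217, 270.0 and 202 at Agp 45°, 189, 303 and 116 at Agp 90°, and 109, 139 and 222 at Agp 135°. In WS, AT1G47400 gave 387, 258 and 269 at Agp 45°, 573, 429.8 and 305 at Agp 90°, and 281, 250.2 and 405 at Agp 135°. At Agp 90° and at Agp 135° all 3 Col-0 arrays lay below all 3 WS arrays, by a narrow margin at Agp 90°, whereas at Agp 45° the highest Col-0 array lay above the lower WS arrays. Over its 9 arrays the mean signal was 196 ± 66.5 in Col-0 and 351 ± 107 in WS (SD, n = 9 each).

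The lowest array of AT1G47400 in the series was a Col-0 array at Agp 135° and the highest a WS array at Agp 90°. By group mean, the order from high to low was WS Agp 90° (436 ± 134), WS Agp 135° (312 ± 82.1), WS Agp 45° (305 ± 71.6), Col-0 Agp 45° (229.7 ± 35.7), Col-0 Agp 90° (202 ± 94.2) and Col-0 Agp 135° (156 ± 58.5) (SD, n = 3 each). The 3 Col-0 groups stood below the 3 WS groups, but arrays of every pair of neighbours in this order overlapped.

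**Figure D1:**
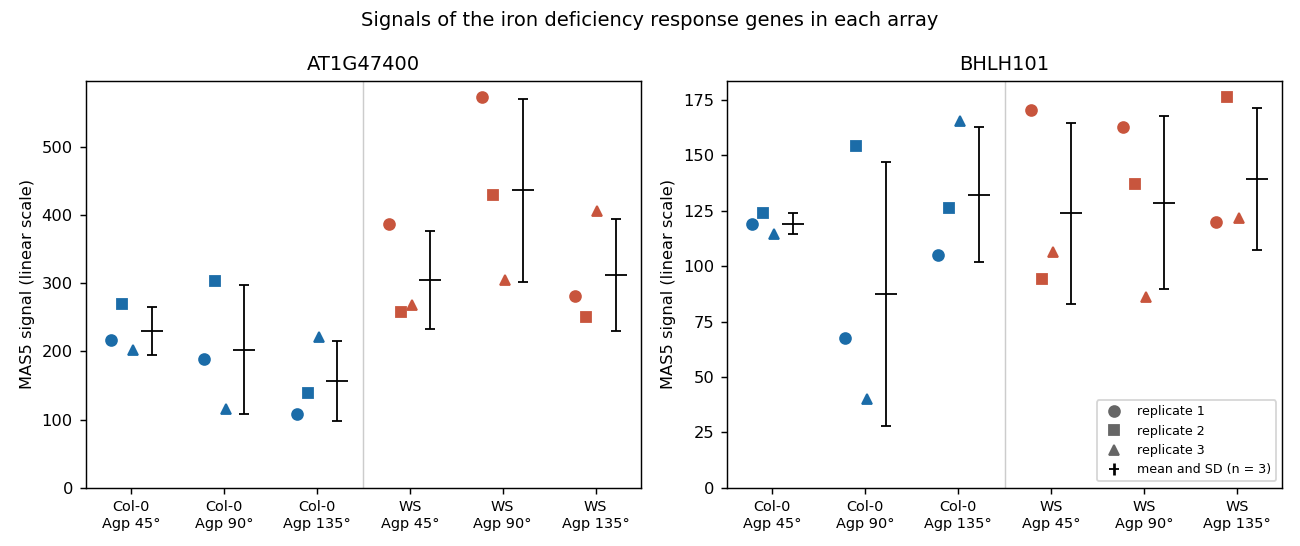
MAS5 signal (linear scale) of AT1G47400 and BHLH101 in each of the 18 arrays, by ecotype and angle; symbols mark the replicate, and bars the mean and SD of 3 arrays. For AT1G47400 the Col-0 arrays lie between 109 and 303 and the WS arrays between 250.2 and 573. For BHLH101 the Col-0 arrays lie between 40.1 and 165 and the WS arrays between 85.9 and 176.

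Averaged over the 3 angles, the log2 fold change of AT1G47400 in Col-0 relative to WS was -0.79 (95% interval -1.14 to -0.45, adjusted p = 0.00153 by limma with Benjamini-Hochberg adjustment). An exact two-sided permutation of the ecotype labels within each angle, over 8000 arrangements, gave p = 0.00025, the smallest it can give. This comparison called 29% of all probe sets, and 16% in the direction of AT1G47400, so a difference between the ecotypes was common on these arrays. The F test for any difference among the 6 groups also called AT1G47400 (limma adjusted p = 0.0203), as it did 19.5% of probe sets, and lost it without Col-0 Agp 135° replicate 1 or 2 or WS Agp 90° replicate 1 (adjusted p up to 0.0547). In bulk roots, fewer cells that express a gene and less RNA per cell cannot be told apart. The array probes were designed on Col-0 sequence, and the effect of base differences in WS on these signals was not tested.

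At single angles, the log2 fold change of AT1G47400 in Col-0 relative to WS was -0.41 at Agp 45° (95% interval -1.01 to 0.20, adjusted p = 0.412), -1.07 at Agp 90° (-1.67 to -0.46, adjusted p = 0.0191) and -0.91 at Agp 135° (-1.51 to -0.30, adjusted p = 0.0449) by limma. It thus fell in Col-0 at Agp 90° and 135°, where limma called 13.1% and 13.5% of all probe sets. Those called lower in Col-0 were 6.36% of all probe sets at Agp 90° and 6.3% at Agp 135°. Non-overlapping arrays, with Col-0 the lower, were found for 14.3% of probe sets at Agp 90° and 18.8% at Agp 135°. The study's cutoffs, a log2 fold change over 1 in size at an unadjusted p under 0.05, were applied to the values used here. The study itself applied them to differently normalized values. By these cutoffs AT1G47400 passed at Agp 90° (2.71% of probe sets did) and at no other angle.

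The calls at single angles did not hold in every fit without 1 array. At Agp 90° the difference no longer passed without Col-0 Agp 90° replicate 1 or 3 or WS Agp 90° replicate 1 or 2 (adjusted p from 0.0502 to 0.0934), with log2 fold changes from -1.35 to -0.78 over the 18 arrays left out in turn. At Agp 135° it passed in only 6 of these 18 fits (those without Col-0 Agp 90° replicate 2 or 3, Col-0 Agp 135° replicate 3, WS Agp 45° replicate 1, or WS Agp 90° replicate 1 or 3), and the adjusted p in the other 12 fits lay between 0.051 and 0.178. The log2 fold change at Agp 135° ran from -1.13 to -0.72 over the 18 fits. Some of these losses came without arrays of another angle, which left the value itself nearly unchanged. Without Col-0 Agp 45° replicate 1, 2 or 3 it stayed at -0.91, with limma adjusted p of 0.0567, 0.0526 and 0.0544, against 0.0449 with all arrays. The difference averaged over the angles passed in every one of the 18 fits, with adjusted p no higher than 0.00396.

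AT1G47400 showed no change with the angle of the plate that passed the test. In Col-0, its log2 fold change was 0.24 at Agp 45° relative to Agp 90° (95% interval -0.36 to 0.84, adjusted p = 0.918 by limma) and -0.27 at Agp 135° (-0.88 to 0.33, adjusted p = 0.902 by limma). In WS, where all 3 arrays at Agp 45° lay below the upper arrays at Agp 90°, it had -0.42 at Agp 45° (-1.03 to 0.18, adjusted p = 0.587) and -0.43 at Agp 135° (-1.04 to 0.17, adjusted p = 0.627), again by limma. These intervals run from -1.04 to 0.84, and a change of any size within its interval remains compatible with the arrays. Over both ecotypes the values were -0.09 at Agp 45° and -0.35 at Agp 135°. The change in Col-0 minus the change in WS was 0.66 for Agp 45° (-0.19 to 1.52, adjusted p = 0.726) and 0.16 for Agp 135° (-0.69 to 1.01, adjusted p = 0.970) in limma. Tilt called few probe sets in any case. In Col-0 limma called 0.022% at Agp 45° and 0% at Agp 135° (6.73% at an unadjusted p under 0.05), in WS 0.985% at Agp 45° and 0.0528% at Agp 135°, and over both ecotypes 0.91% at Agp 45° and 0.0044% at Agp 135°.

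**Figure D2:**
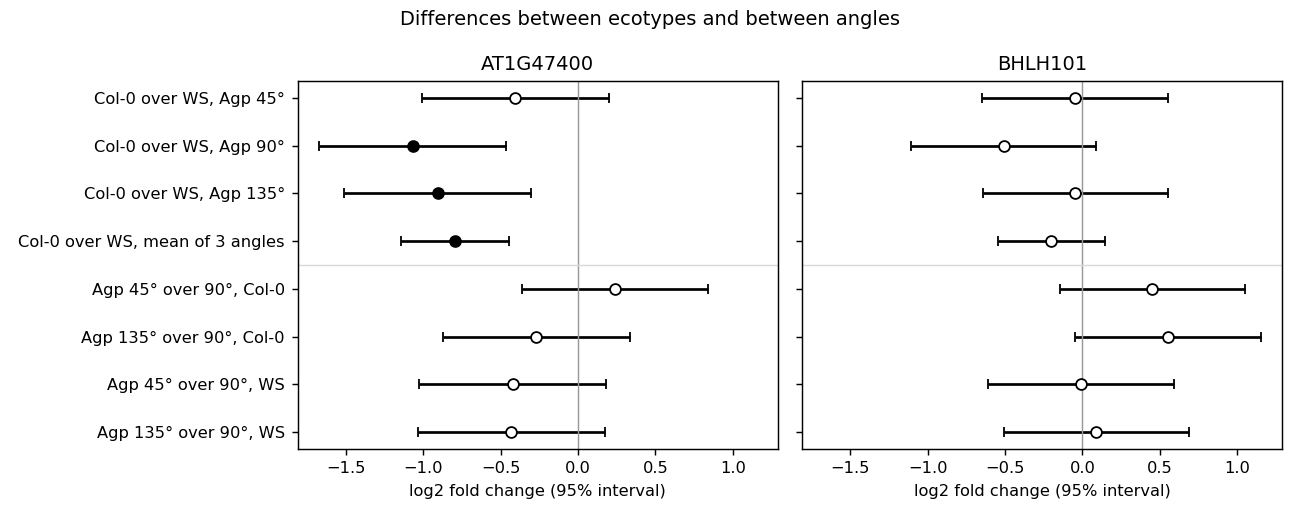
Log2 fold changes of AT1G47400 and BHLH101 with 95% intervals from limma, for Col-0 over WS (upper rows) and for a tilted angle over Agp 90° (lower rows); filled points passed an adjusted p of 0.05. The 3 filled points are AT1G47400 in Col-0 over WS at Agp 90°, at Agp 135° and as the mean of the angles.

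BHLH101, the transcription factor gene, had overlapping signals in the 2 ecotypes. In Col-0, BHLH101 gave signals of 119, 124 and 114 at Agp 45°, 67.6, 154 and 40.1 at Agp 90°, and 105, 126 and 165 at Agp 135°. In WS, BHLH101 gave 171, 94.4 and 107 at Agp 45°, 163, 137 and 85.9 at Agp 90°, and 119.8, 176 and 122 at Agp 135°. The Col-0 arrays at Agp 45° lay close together, those at Agp 90° held both the lowest arrays of the series and one of its higher ones, and the ecotypes overlapped at every angle. The group means, from high to low, were 139 ± 32 in WS Agp 135°, 132 ± 30.6 in Col-0 Agp 135°, 129 ± 39.1 in WS Agp 90°, 124 ± 40.9 in WS Agp 45°, 119 ± 4.81 in Col-0 Agp 45° and 87.3 ± 59.5 in Col-0 Agp 90° (SD, n = 3 each), and every pair of neighbours overlapped.

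No comparison of BHLH101 passed the adjusted test. Over 9 arrays the mean signal of BHLH101 was 113 ± 39.1 in Col-0 and 131 ± 33.2 in WS (SD), with a log2 fold change of -0.20 averaged over the angles (95% interval -0.55 to 0.14, limma adjusted p = 0.402, exact permutation p = 0.276). In Col-0 relative to WS it was -0.05 at Agp 45° (-0.65 to 0.55, adjusted p = 0.942), -0.51 at Agp 90° (-1.11 to 0.09, adjusted p = 0.293) and -0.05 at Agp 135° (-0.64 to 0.55, adjusted p = 0.951) by limma. The largest of these, at Agp 90°, turned on 1 array. Without Col-0 Agp 90° replicate 2, which has the high actin ratio and the highest signal of its group, BHLH101 at Agp 90° came to -0.88 (limma adjusted p = 0.0268). When the 2 arrays of high actin ratio were left out, which was decided after seeing the data, it was -1.09 (adjusted p = 0.00935), and the difference averaged over the angles also passed, at -0.39 (adjusted p = 0.0254 by limma).

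Tilt gave log2 fold changes of BHLH101 between -0.01 and 0.55. In Col-0 it was 0.45 at Agp 45° (95% interval -0.15 to 1.05, adjusted p = 0.775) and 0.55 at Agp 135° (-0.05 to 1.15, adjusted p = 0.755), relative to Agp 90°, by limma. In WS it was -0.01 at Agp 45° (-0.61 to 0.59, adjusted p = 0.996) and 0.09 at Agp 135° (-0.51 to 0.69, adjusted p = 0.953), also by limma. The upright Col-0 group, with its wide spread, is the baseline of both Col-0 values. The change in Col-0 minus that in WS was 0.46 at both tilts (adjusted p = 0.821 for Agp 45° and 0.875 for Agp 135°).

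AT1G47400 and BHLH101 varied more within groups than nearly all other probe sets. Their residual SD in the model was 0.386 and 0.383 on the log2 scale, above those of 97.5% and 97.3% of all probe sets, where the median was 0.173. This spread was largely shared: within their groups the replicates had the same order by either gene in 5 of 6 groups, WS Agp 135° being the exception. In Col-0 Agp 90° replicate 2, the deviation from the group mean was 0.58 for AT1G47400 and 0.75 for BHLH101 on the log2 scale. In replicate 3 of the same group it was -0.58 and -0.56, so that both genes had their widest swing within upright Col-0 roots.

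Both deviations had the same sign in 13 of 18 arrays. Across the arrays the deviations of the 2 genes from their group means had a Pearson r of 0.76 and a Spearman rho of 0.68 (n = 18), and the values themselves an r of 0.53 and a rho of 0.41. By ecotype the r of the deviations was 0.92 over the 9 Col-0 arrays and 0.52 over the 9 WS arrays. These correlations describe the arrays and carry no test, since both values of an array come from the same RNA pool, hybridization and scaling.

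**Figure D3:**
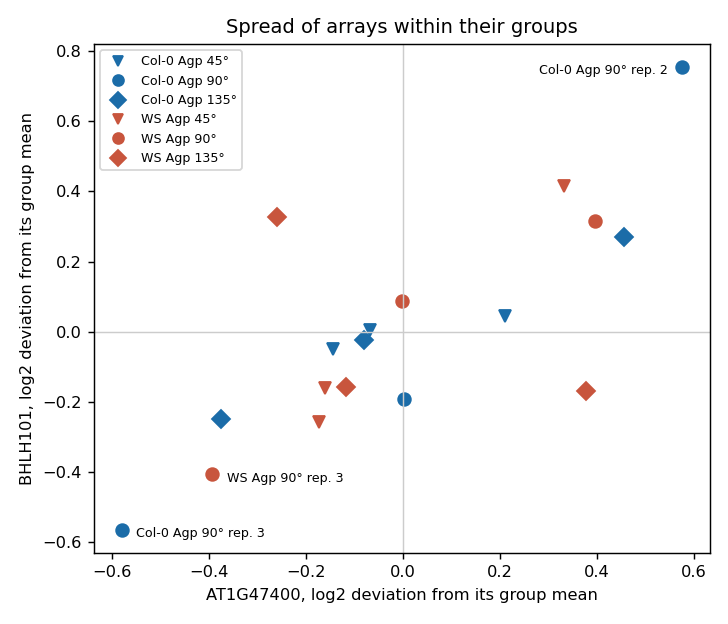
Deviation of each of the 18 arrays from its group mean, on the log2 scale, for AT1G47400 (horizontal axis) and BHLH101 (vertical axis), by ecotype and angle. Upright Col-0 replicates 2 and 3 lie at opposite ends, at 0.58 and 0.75 and at -0.58 and -0.56, and in 13 of 18 arrays both deviations have the same sign.

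Other genes and measures of the arrays moved with this shared spread. The deviations of RCA had an r of 0.67 with those of AT1G47400 and 0.54 with those of BHLH101 (n = 18). RCA ranged from 652 to 1454 in Col-0 arrays and from 649 to 1400.4 in WS arrays, and its difference between the ecotypes averaged over the angles did not pass (log2 fold change 0.16, limma adjusted p = 0.523). Some iron genes of the lists described below moved with the spread as well, in either direction. For bHLH104 the r of the deviations was 0.74 with AT1G47400 and 0.58 with BHLH101. The 2 probe sets of BTSL1 differed, at 0.65 and 0.68 for 1 of them and -0.21 and -0.52 for the other. For BGLU42, a beta-glucosidase gene, it was -0.64 and -0.50. For the 3′ to 5′ ratio of GAPDH the r of the deviations was 0.53 with AT1G47400 and 0.46 with BHLH101, and for actin 0.33 and 0.42. Of the 2 arrays with the high actin ratio, Col-0 Agp 90° replicate 2 was the highest of its group for both genes, and WS Agp 90° replicate 3 the lowest of its group for both. The root hair genes EXPA7 and EXPA18 were higher in Col-0 averaged over the angles (log2 fold change 0.44, adjusted p = 0.0315, and 0.42, adjusted p = 0.0139, by limma), in the direction opposite to AT1G47400, whereas PER44 had 0.15 (adjusted p = 0.434). The part of these genes and measures in the spread or in the ecotype difference was not tested.

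The probe sets most like AT1G47400 over the 18 arrays, by Pearson r among the other probe sets with 1 gene, were those of AT2G36690 (0.84), AT3G43270 (0.84), ATG8B (0.83), AT1G70470 (0.83) and LBD16 (0.82). All 5 had lower mean signals in Col-0 than in WS. They also followed AT1G47400 within the groups, where the r of the deviations lay between 0.51 (AT2G36690) and 0.72 (LBD16). AT2G36690, the first of them, averaged 187 ± 29.9 in Col-0 and 343 ± 71.3 in WS (SD, n = 9 each). ATG8B encodes an autophagy protein, and LBD16 a transcription factor of lateral root formation, whose signal averaged 216 ± 34.0 in Col-0 and 262 ± 21.9 in WS (SD, n = 9 each).

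Those most like BHLH101 were AT4G01960 (0.85), GLX2-1 (0.79), AT5G64780 (0.79), AT1G22430 (0.78) and AT4G26790 (0.78). No gene was shared with the 5 of AT1G47400. For AT4G01960 the mean signal was 598 ± 55.4 in Col-0 and 593 ± 41.7 in WS (SD, n = 9 each), so this likeness lay in the spread within groups, where the r of the deviations was 0.84. These 10 genes were picked by their likeness on these arrays, which gives no independent support to either pattern.

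Of 58 further genes of iron regulation, uptake, distribution and storage, the annotation gave 19 a probe set of their own (20 probe sets). They comprised 12 of 17 regulators, 4 of 13 uptake genes, 1 of 16 distribution genes, 2 of 10 storage genes and 0 of the 2 other IRON MAN genes. In Col-0 relative to WS averaged over the angles, 1 probe set rose and 5 fell, against 12.9% and 16% of all probe sets. Their median log2 fold change was -0.02, against -0.03 over all probe sets. At Agp 45°, 1 rose and 0 fell by limma, against 7.06% and 5.9% of all probe sets. Without adjustment (limma p under 0.05), 3 were higher and 2 lower there, against 11.7% and 14% of those tested. At Agp 90°, 1 rose and 5 fell, against 6.76% and 6.36% of all probe sets. At Agp 135°, 2 rose and 0 fell by limma, against 7.19% and 6.3% of all probe sets. By the same unadjusted cutoff, 3 were higher and 4 lower at Agp 135°, against 12.2% and 13.4% of those tested. At Agp 90° the median log2 fold change of the 20 was -0.22, against -0.02 over all probe sets, and 5 of the 20 were positive.

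Of the 13 probe sets of regulators, 4 fell in Col-0 relative to WS at Agp 90°, where 6.36% of all probe sets did, and 9 did not pass. The 4 belong to bHLH115, PYE, BTSL2 and NAI1. bHLH115, an activator of subgroup IVc, gave signals of 2104, 2144 and 1983 in Col-0 and 2677, 2708 and 2978 in WS at Agp 90°. The 2 ecotypes did not overlap there, and the log2 fold change was -0.40 (SE 0.0832, limma adjusted p = 0.00412). At Agp 45° and 135° the difference of bHLH115 was -0.03 and -0.09 and did not pass, and averaged over the angles it was -0.17 (adjusted p = 0.0131 by limma). The other IVc factors, bHLH34, bHLH104 and ILR3, passed in no comparison.

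BTSL2, one of the ubiquitin ligases that restrain iron uptake, gave 664, 727 and 818 in Col-0 and 1222, 1335 and 894 in WS at Agp 90°. All Col-0 arrays were lower, with a log2 fold change of -0.63 (SE 0.159, adjusted p = 0.0137 by limma), which no longer passed without Col-0 Agp 90° replicate 1 or WS Agp 90° replicate 1 or 2 (adjusted p up to 0.0681). Averaged over the angles it was -0.39 (adjusted p = 0.00388 by limma). BTSL1, its close relative, has 2 probe sets: 1 of them rose in Col-0 at Agp 135° (log2 fold change 0.41, limma adjusted p = 0.0469) and the other did not pass there (0.36, adjusted p = 0.163). That call of BTSL1 was lost in 12 of the 18 fits without 1 array (adjusted p up to 0.146) and held without Col-0 Agp 45° replicate 1 or 3, Col-0 Agp 90° replicate 2 or 3, Col-0 Agp 135° replicate 1 or WS Agp 90° replicate 2.

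PYE, a bHLH repressor of iron distribution genes, gave 156, 227 and 192 in Col-0 and 229, 249 and 268 in WS at Agp 90°. The log2 fold change of PYE was -0.37 at Agp 90° (adjusted p = 0.0397 by limma) and -0.28 averaged over the angles (adjusted p = 0.00414). The value at Agp 90° was lost in 6 of 18 fits, those without Col-0 Agp 45° replicate 3, Col-0 Agp 90° replicate 1 or 3, Col-0 Agp 135° replicate 2 or WS Agp 90° replicate 2 or 3 (adjusted p up to 0.188). NAI1, a subgroup IVa bHLH gene known for endoplasmic reticulum bodies, was lower in Col-0 at Agp 90°, at a log2 fold change of -0.50 (limma adjusted p = 0.0091), and averaged over the angles, at -0.36 (adjusted p = 0.000894). Without the 2 arrays of high actin ratio the value of NAI1 at Agp 90° was -0.44 (limma adjusted p = 0.103). NAI1 was also the 1 iron list probe set called for tilt, at -0.38 on the log2 scale for Agp 45° relative to Agp 90° over both ecotypes (adjusted p = 0.0428 by limma). That call of NAI1 was lost in 11 of 18 fits (adjusted p up to 0.0976) and held without Col-0 Agp 90° replicate 2, Col-0 Agp 135° replicate 1 or 3, WS Agp 45° replicate 3, WS Agp 90° replicate 2 or WS Agp 135° replicate 1 or 2.

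**Figure D4:**
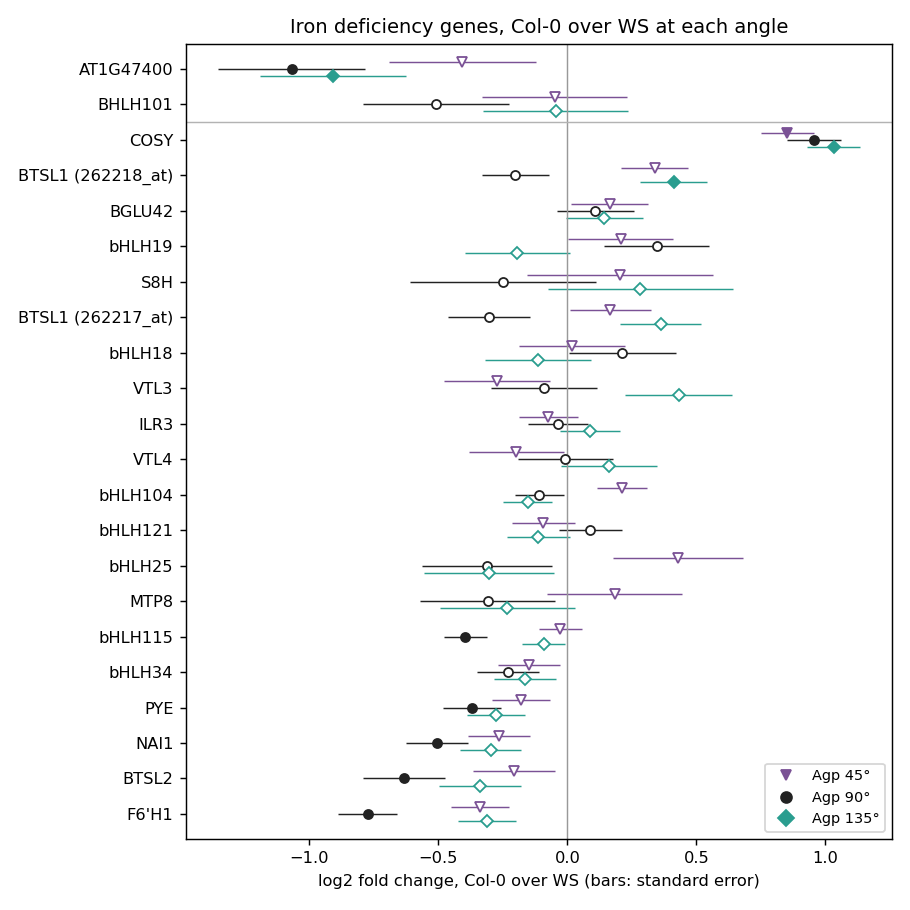
Log2 fold change of Col-0 over WS at Agp 45°, 90° and 135°, with standard errors from limma, for AT1G47400 and BHLH101 (top) and the 20 probe sets of the iron lists, ordered by their mean; filled points passed an adjusted p of 0.05. COSY lies right of 0 at all 3 angles, and F6'H1 has the lowest list value, -0.77 at Agp 90°.

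COSY and F6'H1, coumarin genes of the uptake list, had the largest differences between the ecotypes among the 20 probe sets at Agp 90°, and in opposite directions. Coumarins are phenolic compounds that roots secrete to mobilize iron. F6'H1, the first dedicated enzyme of their synthesis, gave 2045, 1710.2 and 1876 in Col-0 and 3219, 3260.0 and 3256 in WS at Agp 90°. The ecotypes stood well apart there, with a log2 fold change of -0.77 (SE 0.114, limma adjusted p = 0.000183). Averaged over the angles it was -0.47 (adjusted p = 3.87e-05 by limma). At Agp 45° the arrays of F6'H1 overlapped between the ecotypes (Col-0 up to 2230, WS from 2166). At Agp 135° all its Col-0 arrays were lower, and the difference passed at neither of these angles. F6'H1 was highest in upright WS roots: it gave 2166, 2409 and 2760.4 in WS at Agp 45°, a log2 fold change of -0.43 relative to WS at Agp 90° that missed the adjusted test (limma adjusted p = 0.0975).

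COSY, the enzyme that closes the coumarin ring, gave 1391, 1595 and 1548 in Col-0 and 685, 860.2 and 728 in WS at Agp 90°. Every Col-0 array of the series (1323 to 1595) lay above every WS array (644 to 860.2). The effect of base differences in WS on the COSY signals was not tested either. The log2 fold change of COSY in Col-0 relative to WS was 0.85 at Agp 45° (adjusted p = 3.12e-05), 0.96 at Agp 90° (adjusted p = 8.63e-06) and 1.03 at Agp 135° (adjusted p = 3.83e-06) by limma, and 0.95 averaged over the angles (adjusted p = 4.78e-09). S8H, which makes the catechol coumarin fraxetin, and BGLU42, a beta-glucosidase that releases coumarins, passed in no comparison.

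S8H, bHLH18, bHLH19, bHLH25, the manganese and iron transporter gene MTP8 and the storage gene VTL4 had mean signals under the added 32, so the scale understates any change of these 6 of 20 probe sets. bHLH18 and bHLH25 averaged 9.57 ± 8.32 and 16.2 ± 12.6 over the 18 arrays (SD). The storage genes VTL3 and VTL4, of the vacuolar iron transporter family, passed in no comparison. Lists of zinc and copper genes were also included. The annotation gave a probe set of its own to only ZIP9 of 10 zinc genes and to 0 of 10 copper genes. ZIP9 passed in no comparison, with mean signals of 72.7 ± 15.2 in Col-0 and 70.7 ± 13.2 in WS (SD, n = 9 each).

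The difference between ecotypes in the response to tilt was called by limma for 0% of the 22746 probe sets at either tilt (7.35% at Agp 45° and 6.87% at Agp 135° had an unadjusted p under 0.05), so whether AT1G47400 and the list genes respond differently to tilt in Col-0 and WS was not resolved at 3 arrays a group. In the 20 iron list probe sets, the change at Agp 45° relative to Agp 90° was greater in Col-0 than in WS for 4 at an unadjusted p under 0.05. They were those of bHLH104, bHLH115, F6'H1 and 1 of BTSL1. The change at Agp 135° relative to Agp 90° was greater in Col-0 for 4, those of bHLH115, F6'H1 and both of BTSL1. Over all probe sets 3.95% and 3.82% had such a difference. Both sets of values share the upright groups.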

How the data were processed

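RNA from roots of Col-0 and WS at Agp 45°, 90° and 135° was hybridized to 18 ATH1 arrays. The authors deposited MAS5 signal intensities on a linear scale, made with the Affymetrix Expression Console (version not given in the sources used here), for 22810 probe sets. With 2% of the values trimmed at either end, every array was found to average 500. The study's own tests used RMA values and a cutoff on unadjusted p-values. The study also marked genes with a false discovery rate under 0.05. Those tests were not used here. Detection calls were not used. Signals were raised by 32, taken to log2 and quantile normalized, and 64 control probe sets were left out. A model of 6 group means was fitted in limma 3.58.1 (R 4.3.3; 12 residual and 3.45 prior degrees of freedom) and tested on simulated data. Two-sided p-values were adjusted by Benjamini-Hochberg over 22746 probe sets in each of 12 comparisons and an F test. The members, the lists and the rule for named genes (list genes passing in any comparison, the extremes of signal, and the 5 probe sets most like each gene) were chosen with earlier results of these data known. Of 13513 probe sets with 1 gene, 13436 matched a RefSeq locus; 503 with several genes and 8730 without were tested but not named. Alternatives were no further normalization, pseudocounts of 1 and 100, a filter that drops the dimmest 40% of probe sets, a variance prior that follows intensity, fits to the compared groups alone, a replicate block, and fits without each array or without the 2 arrays of high actin ratio. The number of arrays limits the precision.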

Additional observations from a re-analysis of the deposited data

How the results depend on the processing

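Of 42 results of single genes, 42 kept their direction and their side of the threshold with a pseudocount of 100, without the 40% dimmest probe sets and with an intensity trend, 40 with no further normalization, 39 with a pseudocount of 1, 38 with the replicate block, and 27 of 32 with only the compared groups. AT1G47400 in Col-0 relative to WS averaged over the angles kept its call throughout (adjusted p up to 0.00396). At Agp 90° it missed the test with only the compared groups (0 genes called; adjusted p = 0.0937), and at Agp 135° with no further normalization (0; 0.0555), a pseudocount of 1 (0; 0.0676), only the compared groups (0; 0.0673) and the replicate block (0; 0.0656). The other calls lost under these settings were those of PYE and BTSL2 at Agp 90°, BTSL1 at Agp 135° and NAI1. Replicate numbers did not pair the arrays: residuals correlated over 45 pairs of like-numbered arrays from different groups with a median of -0.00285 (-0.229 to 0.146), and 5 of 18 arrays were closest to their own number; the block left 1 gene called at Agp 90° and 1 averaged over the angles. Without the 2 arrays of high actin ratio, 2 genes in place of 1 passed at Agp 90°, 2 averaged over the angles and 2 by the F test among the 6 groups, while AT1G47400 at Agp 135° relative to Agp 90° in Col-0 moved to 0.0173 and BHLH101 at Agp 135° relative to Agp 90° in WS to -0.11.

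With each array left out, 0 to 2 genes passed between the ecotypes at Agp 90°, 0 to 1 at Agp 135°, and 0 to 1 by the F test (main adjusted p = 0.0203 for AT1G47400 and 0.537 for BHLH101; the call of AT1G47400 was lost without Col-0 Agp 135° replicate 1 or 2 or WS Agp 90° replicate 1). Values that crossed 0, none of them called, ran for AT1G47400 from -0.0502 to 0.53 (Col-0, Agp 45°), -0.56 to 0.0171 (Col-0, Agp 135°), -0.24 to 0.0517 (Agp 45° over both ecotypes) and -0.13 to 0.45 (Agp 135°, Col-0 change minus WS change), all relative to Agp 90°. For BHLH101 they ran from -0.22 to 0.15 (WS, Agp 45°) and -0.11 to 0.25 (WS, Agp 135°), and between the ecotypes from -0.18 to 0.16 (Agp 45°) and -0.18 to 0.12 (Agp 135°). The cause of these shifts was not tested.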
